A study of Mus musculus with 17 samples.

Results

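A set of 10 genes of cholinergic signalling were followed through the processed data of a mouse study of Parkinson's disease (PD). They were picked by name, as the rows of Chrna3, Chrna4, Chrna5, Chrna6, Chrnb2, Chrnb3, Chrnb4, Ache, Chat and Slc18a3, and all 10 are among the 20328 genes of the RNA-seq table. The scRNA-seq table lists 9 of them, the H3K27ac CUT&RUN table has a region for 1 of them (Ache), and the ATAC-seq table has none.

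The study asked how NDST3, carried as the human sequence in an AAV9 vector under the CMV promoter, changes the brain of mice with a lesion made by the neurotoxin 6-OHDA. RNA-seq covers 2 sham libraries, 1 library of the 6-OHDA-induced PD model and 2 libraries of the NDST3-treated PD model. All came from WT ICR mice, female by the study's methods and 8 weeks old at the unilateral injection of 6-OHDA into the substantia nigra. The vector was injected at the same site 5 days later, its CMV promoter is active in many cell types, the methods give saline as the injection in place of NDST3, and the labels name the tissue only as brain. Nothing in the labels says that 2 libraries of a group came from separate animals, so p-values measure only the spread between these libraries, which may be technical.

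Acetylcholine is made from choline and acetyl-CoA by choline acetyltransferase (Chat), loaded into synaptic vesicles by the vesicular acetylcholine transporter (Slc18a3) and split in the synaptic cleft by acetylcholinesterase (Ache). It opens nicotinic receptors, cation channels assembled from alpha subunits (Chrna genes) and beta subunits (Chrnb genes). Chrna4 and Chrnb2 form the most widespread high-affinity nicotinic receptor of the brain. Chrna6 and Chrnb3 are concentrated in midbrain dopaminergic neurons, where their receptors act on dopamine release, Chrna5 is an accessory subunit, and Chrna3 with Chrnb4 is typical of the medial habenula and of autonomic ganglia.

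Total counts ranged from 51003699 to 70533326 per library, and 19300 genes, all 10 cholinergic genes among them, passed the filter on low counts. The 6-OHDA library stood apart in markers of neighbouring brain regions. The summed level of 3 serotonin neuron markers was 1.26 CPM (counts per 1000000 counts, scaled by TMM factors) in it and 106 to 295 CPM in the other 4 libraries, and that of 4 hypothalamic markers was 170 CPM against 1.11 to 7.44 CPM. The part of such regional differences in the results that use this library was not tested. The comparison of the NDST3-treated PD model with sham does not use it.

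Every one of the 10 genes was lower in the 6-OHDA library than in both sham libraries, as were 44.3% of all genes tested, and 7 passed the test (17.1% of all genes passed as lower). In both libraries of the NDST3-treated PD model 8 were higher than in the 6-OHDA library, as were 42.4% of all genes, and 5 passed (9.06% of all genes). The exceptions were Chrna6 and Chrnb3, which in CPM lay below it in both libraries. The plot of CPM by library shows these levels.

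**Figure D1:**
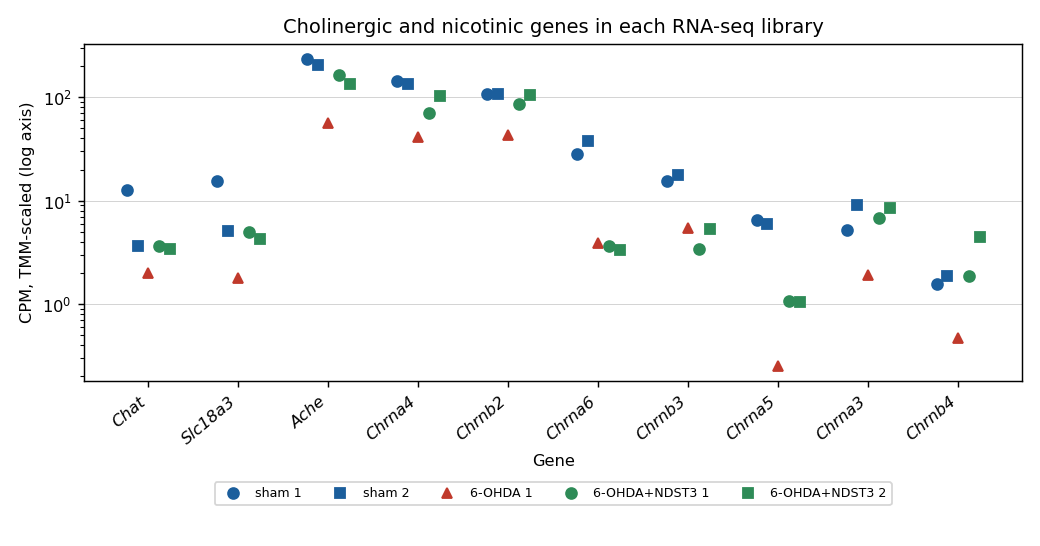
CPM (TMM-scaled, log axis) of the 10 cholinergic genes in each of the 5 RNA-seq libraries, 1 point per library, in blue for sham, red for 6-OHDA and green for 6-OHDA+NDST3. The red point lies below both blue points for all 10 genes, and for Chrna6 and Chrnb3 the green points lie with or below it.

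The genes of acetylcholine synthesis and storage were low and uneven. Chat had 12.8 and 3.65 CPM in the sham libraries, 2.01 CPM in the 6-OHDA library, and 3.65 and 3.40 CPM in the NDST3-treated libraries. Slc18a3 had 15.3 and 5.07 CPM in sham, 1.78 CPM after 6-OHDA, and 4.97 and 4.26 CPM with NDST3. For both genes sham replicate 1 stood far above sham replicate 2, by 3.51-fold for Chat and 3.03-fold for Slc18a3, and the second sham library lay close to the NDST3-treated libraries. The log2 fold change of the 6-OHDA library against sham was -2.03 for Chat (standard error 0.81, 95% interval -4.11 to 0.06, adjusted p = 0.111 by edgeR) and -2.51 for Slc18a3 (standard error 0.75, 95% interval -4.45 to -0.58, adjusted p = 0.0551 by edgeR), and neither passed. Without sham replicate 1 these values were -0.86 for Chat and -1.51 for Slc18a3, and without sham replicate 2 they were -2.67 and -3.11. With NDST3 the values against the 6-OHDA library were 0.81 for Chat (95% interval -1.18 to 2.79, adjusted p = 0.481 by edgeR) and 1.37 for Slc18a3 (95% interval -0.47 to 3.21, adjusted p = 0.224 by edgeR). Serotonin neuron markers were also higher in sham replicate 1, with a summed level of 295 CPM against 115 CPM in sham replicate 2, and the part of this in the Chat and Slc18a3 values was not tested.

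Slc18a3, a gene of 1 exon on chromosome 14 of GRCm38 from 32462437 to 32464850, lies whole in intron 1 of Chat, which runs from 32408203 to 32465909 on the same minus strand. The annotated exons of the longest curated Chat transcript and of Slc18a3 share 0 bases. The TPM of Slc18a3 (the deposited level that takes transcript length into account) divided by that of Chat was 1.39 and 1.62 in sham, 1.02 after 6-OHDA, and 1.59 and 1.46 with NDST3. The gene whose profile over the 5 libraries was nearest to Slc18a3, out of 15522 genes with a mean of at least 1 CPM, was Slc5a7, the choline transporter of cholinergic terminals, at a Euclidean distance of 0.163 between centred log2(CPM + 1) profiles. Chat was the next at 0.402, and Slc5a7 (0.499) was second to Slc18a3 (0.402) for Chat itself. Slc5a7 had 33.5 and 13.9 CPM in sham, 5.23 CPM after 6-OHDA and 13.0 and 11.2 CPM with NDST3. It fell by 2.18 in log2 units after 6-OHDA (standard error 0.58, adjusted p = 0.0414 by edgeR). The promoter windows of Slc18a3 and Chat, from 250 bases before to 50 bases after the RefSeq start (GRCm38.p6, minus strand, chr14:32464801-32465100 and chr14:32465860-32466159), are shown because these neighbouring starts lead to transcripts with like profiles. Capitals mark a GC box, GGGCGG or its reverse complement.
Slc18a3: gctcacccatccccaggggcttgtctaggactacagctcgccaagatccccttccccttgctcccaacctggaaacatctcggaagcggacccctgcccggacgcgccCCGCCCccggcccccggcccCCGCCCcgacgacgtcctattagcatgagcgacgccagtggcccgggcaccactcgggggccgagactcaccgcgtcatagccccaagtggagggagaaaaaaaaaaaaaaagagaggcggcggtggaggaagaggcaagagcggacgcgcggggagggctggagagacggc
Chat: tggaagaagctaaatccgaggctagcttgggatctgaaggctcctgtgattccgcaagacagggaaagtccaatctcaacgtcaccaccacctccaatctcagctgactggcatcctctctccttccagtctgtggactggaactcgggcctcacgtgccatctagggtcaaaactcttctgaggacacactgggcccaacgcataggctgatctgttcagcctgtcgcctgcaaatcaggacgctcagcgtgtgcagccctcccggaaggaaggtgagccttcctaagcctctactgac
The Slc18a3 window is 67.0% G and C with 27 CpG sites and 2 GC boxes, and the Chat window is 55.7% G and C with 10 CpG sites and no GC box.

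Ache (chromosome 5 of GRCm38, 137288247 to 137294466, plus strand) was the most abundant of the 10 genes per length in every group. It had 233 and 207 CPM in sham, 56.5 CPM after 6-OHDA, and 166 and 134 CPM with NDST3. The 3 groups did not overlap, and the NDST3-treated libraries lay between the other groups. Ache fell by 1.96 in log2 units after 6-OHDA (standard error 0.19, adjusted p = 0.00823 by edgeR), to 25.7% of the sham mean. With NDST3 it rose by 1.41 against the 6-OHDA library (standard error 0.18, adjusted p = 0.032 by edgeR), to 68.1% of the sham mean. Against sham its log2 fold change was -0.55 (95% interval -0.91 to -0.20, adjusted p = 0.213 by edgeR), which did not pass.

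Ache was the 1 cholinergic gene with an H3K27ac region, and this histone mark is typical of active promoters and enhancers. The region spans bases 137285891 to 137286020 of chromosome 5 in the table's coordinates, -561 bases from the annotated start. Its tag signal was 13.58 in sham, 16.90 after 6-OHDA and 35.29 with NDST3, where each is the authors' pooled value for the group and has no replicate spread. With 1 added to each signal, the ratio of the NDST3-treated PD model was 2.03 to the 6-OHDA-induced PD model and 2.49 to sham. A ratio of at least 2 was reached by 11.0% of all 11424 regions in the first comparison and by 25.5% in the second. All 11424 listed regions have a signal in the NDST3-treated PD model no lower than the one after 6-OHDA alone, so the direction of the first ratio is fixed by the list and only its size can be read, beside a median of 1.31 over all regions. When each group was divided by its median signal the ratios were 1.5 and 1.69, both under 2. The ratio of the 6-OHDA-induced PD model to sham was 1.23, with a median of 1.09 over all regions.

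The table's coordinates could not be joined to the reference. The labels name mm10, yet the start site given by a region's position and listed distance lay within 1000 bases of the same gene's start or end in GRCm38 for only 4.07% of 11181 regions. The promoter window of Ache from RefSeq (GRCm38.p6, plus strand, chr5:137288004-137288303) is therefore shown on its own, as the promoter nearest to that H3K27ac region by gene name, with GC boxes in capitals.
Ache: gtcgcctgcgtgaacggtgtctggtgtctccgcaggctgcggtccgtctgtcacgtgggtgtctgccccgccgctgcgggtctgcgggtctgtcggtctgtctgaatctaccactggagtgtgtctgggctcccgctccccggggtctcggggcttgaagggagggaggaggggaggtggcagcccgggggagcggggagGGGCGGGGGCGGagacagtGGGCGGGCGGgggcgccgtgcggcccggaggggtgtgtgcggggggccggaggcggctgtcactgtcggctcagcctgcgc
This window is 74.0% G and C, against a median of 52.7% over all 32851 promoter windows, and holds 30 CpG sites and 4 GC boxes, of which some overlap or adjoin.

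Chrna4 (chromosome 2, 181022311 to 181043579, minus strand) and Chrnb2 (chromosome 3, 89753448 to 89764632, minus strand), the pair that forms the common receptor of the brain, both fell after 6-OHDA and rose with NDST3. Chrna4 had 143 and 135 CPM in sham, 41.1 CPM after 6-OHDA, and 70.7 and 104 CPM with NDST3. Chrnb2 had 106.5 and 106.6 CPM in sham, 42.9 CPM after 6-OHDA, and 85.2 and 104.5 CPM with NDST3. For both genes the libraries of the 3 groups did not overlap and the second NDST3-treated library was the higher of its pair. After 6-OHDA Chrna4 fell by 1.76 in log2 units (standard error 0.26, adjusted p = 0.0105 by edgeR) and Chrnb2 by 1.31 (standard error 0.16, adjusted p = 0.00852 by edgeR). With NDST3 Chrna4 rose by 1.09 (standard error 0.25, adjusted p = 0.0498 by edgeR) and Chrnb2 by 1.15 (standard error 0.16, adjusted p = 0.032 by edgeR). The Chrna4 call stands at the threshold and is lost, among other settings, under 4 other choices of scaling or filter, at adjusted p from 0.0516 to 0.0589. Against sham the values were -0.67 for Chrna4 (95% interval -1.17 to -0.17, adjusted p = 0.257 by edgeR) and -0.17 for Chrnb2 (95% interval -0.48 to 0.14, adjusted p = 0.576 by edgeR).

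The TPM of Chrna4 was 1.64 and 1.54 times that of Chrnb2 in sham, 1.16 times after 6-OHDA, and 1.01 and 1.21 times with NDST3. The genes nearest to Chrnb2 in profile were Syt13, Elavl2 and L1cam at distances of 0.0773, 0.0979 and 0.113, and Syt17, Nwd2 and Cdh8 were nearest to Chrna4 at 0.177, 0.306 and 0.327. Chrna4 and Chrnb2 were further from each other than this, at a distance of 0.575. Both transcripts moved in the same direction in both comparisons, as those of most of the 10 genes did. The promoter windows of this pair (RefSeq, GRCm38.p6, both on the minus strand, chr2:181039128-181039427 and chr3:89764583-89764882) are shown, again with GC boxes in capitals.
Chrna4: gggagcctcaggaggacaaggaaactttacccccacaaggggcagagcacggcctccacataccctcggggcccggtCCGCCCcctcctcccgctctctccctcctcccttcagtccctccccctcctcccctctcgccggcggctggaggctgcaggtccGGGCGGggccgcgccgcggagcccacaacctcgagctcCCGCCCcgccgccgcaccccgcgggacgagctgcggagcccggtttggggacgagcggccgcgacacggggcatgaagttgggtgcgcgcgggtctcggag
Chrnb2: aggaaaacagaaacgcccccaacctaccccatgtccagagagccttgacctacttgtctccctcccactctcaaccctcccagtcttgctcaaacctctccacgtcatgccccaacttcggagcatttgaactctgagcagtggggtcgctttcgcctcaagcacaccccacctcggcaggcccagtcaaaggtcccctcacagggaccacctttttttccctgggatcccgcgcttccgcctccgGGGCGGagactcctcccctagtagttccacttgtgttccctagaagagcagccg
The Chrna4 window lies inside the annotated gene, which extends to 181043579 on this minus strand, so it is not at the gene's outer 5′ end. It holds 33 CpG sites and 3 GC boxes, and the Chrnb2 window 12 CpG sites and 1 GC box. RefSeq windows were matched for 8 of the 10 genes (9 windows, as Chrna5 has 2 starts). Of the 9 windows 6, from 6 genes, hold a GC box, as do 35.7% of all 32851 windows. The letters AAAGGTCA (a site of Nr4a2), TAATCC (of Pitx factors) and TGACGTCA (the cyclic AMP response element) were in none of the 9 windows on either strand, and are in 1.51%, 7.06% and 1.79% of all windows.

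Chrna6 and Chrnb3, the subunits concentrated in dopaminergic neurons, fell after 6-OHDA and were not higher in CPM with NDST3. Chrna6 had 28.6 and 38.1 CPM in sham, 3.91 CPM after 6-OHDA, and 3.66 and 3.33 CPM with NDST3. Chrnb3 had 15.5 and 17.7 CPM in sham, 5.48 CPM after 6-OHDA, and 3.43 and 5.35 CPM with NDST3. For both genes all 3 libraries of lesioned mice lay far below both sham libraries. In CPM the NDST3-treated libraries lay under the 6-OHDA library, but this order depends on the unit. In TPM Chrna6 had 2.86 after 6-OHDA and 2.95 and 2.75 with NDST3. Chrnb3 had 2.54 TPM after 6-OHDA and 1.74 and 2.81 TPM with NDST3. After 6-OHDA Chrna6 fell by 3.09 in log2 units (standard error 0.26, adjusted p = 0.00823 by edgeR), which is 8.53-fold. Chrnb3 fell by 1.60 (standard error 0.33, adjusted p = 0.0207 by edgeR).

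With NDST3 the log2 fold change against the 6-OHDA library was -0.16 for Chrna6, with a 95% interval from -0.75 to 0.43 (adjusted p = 0.641 by edgeR). For Chrnb3 it was -0.32, with an interval from -1.11 to 0.47 (adjusted p = 0.479 by edgeR). A rise of the size measured for Chrnb2 (1.15, 95% interval 0.74 to 1.55) lies outside both intervals. All these intervals rest on the single 6-OHDA library, and the difference between these genes and Chrnb2 was not tested. The dopaminergic markers Th, the enzyme that starts dopamine synthesis, and Slc6a3, the dopamine transporter, give values beside these. Th had 115 and 135 CPM in sham, 2.15 CPM after 6-OHDA, and 11.5 and 8.03 CPM with NDST3, and its rise against the 6-OHDA library was 2.18 in log2 units (standard error 0.29, adjusted p = 0.032 by edgeR). Slc6a3 had 228 and 243 CPM, then 0.15 CPM, then 6.38 and 1.34 CPM, with a log2 fold change of 4.62 (standard error 1.39, adjusted p = 0.0798 by edgeR) that did not pass. Of the 12 dopaminergic markers 11 had a positive log2 fold change in this comparison and 5 passed as higher. Among those that did not pass, Lmx1b was at -0.25, Ret at 0.30, Aldh1a1 at 0.31, Nr4a2 at 0.73, Pitx3 at 1.08 and En1 at 3.34. The difference between the changes of Chrna6 and Th was not tested.

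Against sham, which leaves the 6-OHDA library out of the contrast, Chrna6 was at 10.5% and Chrnb3 at 26.4% of the sham mean in the NDST3-treated PD model. Their log2 fold changes were -3.25 (standard error 0.20, 95% interval -3.76 to -2.75) and -1.92 (standard error 0.26, 95% interval -2.58 to -1.26). The adjusted p from edgeR were 0.103 and 0.152, and 0 of the 19300 genes passed in this comparison, in which 2744 genes had a raw p under 0.05 and the smallest adjusted p was 0.103. DESeq2 called 5 of the 10 cholinergic genes lower in it, among 1048 genes in all. The study states for its heat map a raw p under 0.05 joined to a change of 2-fold or more, and by this rule 3 of the 10 were lower (Chrna6, Chrnb3 and Chrna5), as were 1.08% of the genes tested.

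Chrna6 (chromosome 8 of GRCm38, 27403212 to 27413944, minus strand) and Chrnb3 (27368711 to 27399730, plus strand) are neighbours, with 3481 bases between the ends of the annotated genes. Their TPM ratio was 2.90 and 3.40 in sham, 1.13 after 6-OHDA, and 1.70 and 0.979 with NDST3, so Chrna6 lost more than Chrnb3. The nearest profile to Chrna6 was that of the neurotensin receptor Ntsr1, at a distance of 0.957, followed by Foxa1 at 1.18 and Chrna2 at 1.19. Trpc6 and C130021I20Rik were nearest to Chrnb3 at 0.490 and 0.593.

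Chrna5 fell further than any other of the 10 genes. It had 333 and 413 counts (6.47 and 5.98 CPM) in sham, 13 counts (0.25 CPM) after 6-OHDA, and 64 and 63 counts (1.08 and 1.06 CPM) with NDST3. The 2 libraries of each replicated group lay close together and the groups did not overlap. It fell by 4.62 in log2 units (standard error 0.36, adjusted p = 0.00823 by edgeR), to 4.05% of the sham mean, and rose by 2.07 with NDST3 (standard error 0.34, adjusted p = 0.035 by edgeR), to 17.1%. Against sham it was at -2.54 (standard error 0.23, 95% interval -3.14 to -1.95, adjusted p = 0.152 by edgeR). The profiles nearest to it were those of Dlk1, Sv2c and Foxa1, at distances of 0.580, 0.591 and 0.614.

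Chrna3 and Chrnb4, the pair of the habenula and ganglia, were at or above the sham level with NDST3. Chrna3 had 5.22 and 9.18 CPM in sham, 1.90 CPM after 6-OHDA, and 6.79 and 8.55 CPM with NDST3. Chrnb4 had 1.57 and 1.85 CPM (81 and 128 counts) in sham, 0.46 CPM (24 counts) after 6-OHDA, and 1.86 and 4.47 CPM (111 and 267 counts) with NDST3. The 6-OHDA library was the lowest for both genes, and the second NDST3-treated library was the highest for Chrnb4. Chrna3 fell by 1.93 in log2 units after 6-OHDA (standard error 0.44, adjusted p = 0.028 by edgeR) and rose by 2.01 with NDST3 (standard error 0.44, adjusted p = 0.0462 by edgeR). Chrnb4 was at -1.88 after 6-OHDA (95% interval -3.61 to -0.15, adjusted p = 0.0859 by edgeR) and at 2.76 with NDST3 (95% interval 0.98 to 4.55, adjusted p = 0.0563 by edgeR), and neither passed. Against sham the values were 0.09 for Chrna3 (95% interval -0.74 to 0.91, adjusted p = 0.921 by edgeR) and 0.88 for Chrnb4 (95% interval -0.34 to 2.11, adjusted p = 0.463 by edgeR).

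Habenular markers differed between the same libraries, but not all in the same direction. Gpr151 had 0.33 and 0.12 CPM in sham, 0.41 CPM after 6-OHDA, and 0.40 and 4.96 CPM with NDST3, so that its single high value fell in the library with the highest Chrnb4. Pou4f1, a transcription factor of habenular and other neurons, had 9.61 and 18.8 CPM in sham, 0.72 CPM after 6-OHDA, and 18.9 and 19.0 CPM with NDST3. Nwd2 had 18.9 and 18.4 CPM, then 4.78 CPM, then 11.5 and 16.0 CPM. Tac2 went the other way, with 1.77 and 0.999 CPM in sham, 6.74 CPM after 6-OHDA, and 1.61 and 3.74 CPM with NDST3. Gng8 changed little, at 2.9 and 2.2 CPM, then 2.0 CPM, then 2.1 and 2.3 CPM. The summed level of the 5 habenular markers ranged from 33.5 to 40.6 CPM in sham, was 14.6 CPM after 6-OHDA and ranged from 34.5 to 45.9 CPM with NDST3. Their part in the Chrna3 and Chrnb4 values was not tested.

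Chrna5, Chrna3 and Chrnb4 form a cluster on chromosome 9 of GRCm38. Chrna5 (54980827 to 55011420, plus strand) overlaps the 3′ end of Chrna3 (55010117 to 55026562, minus strand) by 1304 bases, all of them exonic in both, and Chrnb4 (55028154 to 55048953, minus strand) starts 1591 bases further. The library kit keeps the strand, but no source used here states that the counting used it, so reads from the shared 1304 bases may have been split between Chrna5 and Chrna3. The 3 neighbours kept different shares of their sham level after 6-OHDA, at 4.05% for Chrna5, 26.4% for Chrna3 and 27.1% for Chrnb4. With NDST3 they stood at 17.1%, 106% and 185%. The value of Chrnb4 rests on NDST3-treated replicate 2, and without it the log2 fold change was 0.10 against sham (0.88 with both) and 1.97 against the 6-OHDA library (2.76 with both).

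**Figure D2:**
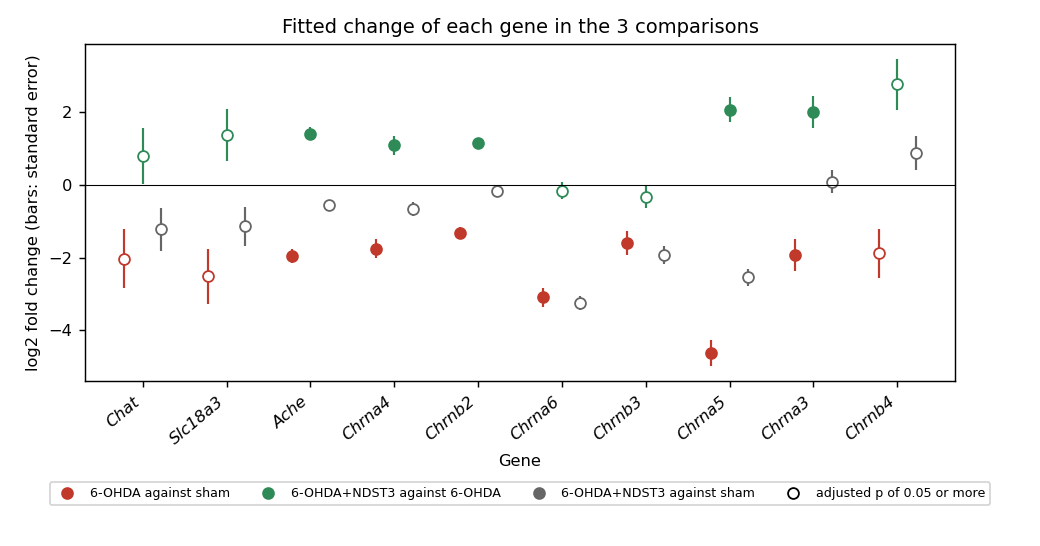
Fitted log2 fold change of the 10 cholinergic genes in the 3 comparisons (edgeR), with bars of 1 standard error. Filled points have an adjusted p under 0.05, which holds for 7 genes in red (6-OHDA against sham), 5 in green (6-OHDA+NDST3 against 6-OHDA) and 0 in grey (6-OHDA+NDST3 against sham).

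Over the 10 genes, 7 were lower in the 6-OHDA library at an adjusted p under 0.05 by edgeR, where 17.1% of the 19300 genes tested were lower, and their median log2 fold change was -1.94 against 0.00 over all genes. With NDST3 5 of 10 were higher than in the 6-OHDA library, where 9.06% of all genes were higher, and the median was 1.26 against 0.00. Against sham 0 of 10 passed, where 0% of all genes did, and the median was -0.91 against 0.01. The first 2 comparisons share the 6-OHDA library, which is also the only one of its group and is assumed in the fit to vary like the others, so a low value in it lowers the first and raises the second. Without sham replicate 1 or without sham replicate 2 the calls of all 7 lower genes were lost, as was every other call among the genes tested in those fits. The calls of higher genes with NDST3 were lost without either sham library and without NDST3-treated replicate 1, as were nearly all calls in that comparison. With all libraries 6 of the 10 had a raw p under 0.05 in it, as had 7321 of the 19300 genes. DESeq2 called all 10 genes lower after 6-OHDA, among 7503 genes called in either direction, and these include Chat (adjusted p = 0.0121 by DESeq2), Slc18a3 (adjusted p = 0.000436 by DESeq2) and Chrnb4 (adjusted p = 0.0286 by DESeq2).

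Per length, the order of the 10 genes differed between groups. In sham it ran from Ache (240 TPM) over Chrna4 (76.8), Chrnb2 (48.3), Chrna6 (28.0), Slc18a3 (10.3), Chrnb3 (8.86), Chat (7.15), Chrna5 (5.39) and Chrna3 (4.04) to Chrnb4 at a mean of 1.06 TPM. The neighbours from Slc18a3 to Chrna5 overlapped in their ranges, whereas the other neighbours did not. In the 6-OHDA library, which has no spread, Ache at 53.6 TPM was again first and Chrna5 at 0.17 TPM was last. With NDST3 Ache (155 TPM), Chrna4 (46.9) and Chrnb2 (41.9) led, and Chrna6 at 2.85 TPM was the seventh in mean, its range overlapping those of Chat above and Chrnb3 below.

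The 7 nicotinic subunits together made 169 and 176 TPM in sham, 43.5 TPM after 6-OHDA, and 84.8 and 117 TPM with NDST3. Chrna4 held 42.4% to 48.1% of this sum in all 5 libraries. Chrna6 held 14.2% and 18.2% in sham, 6.58% after 6-OHDA, and 3.48% and 2.34% with NDST3, while Chrnb2 held 28.5% and 27.5%, then 39.1%, then 43.7% and 39.8%. The TPM of Chrna6 was 0.303 and 0.430 of that of Chrna4 in sham, 0.145 after 6-OHDA, and 0.0791 and 0.0487 with NDST3, so the ratio was lower in both NDST3-treated libraries than in the 6-OHDA library.

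**Figure D3:**
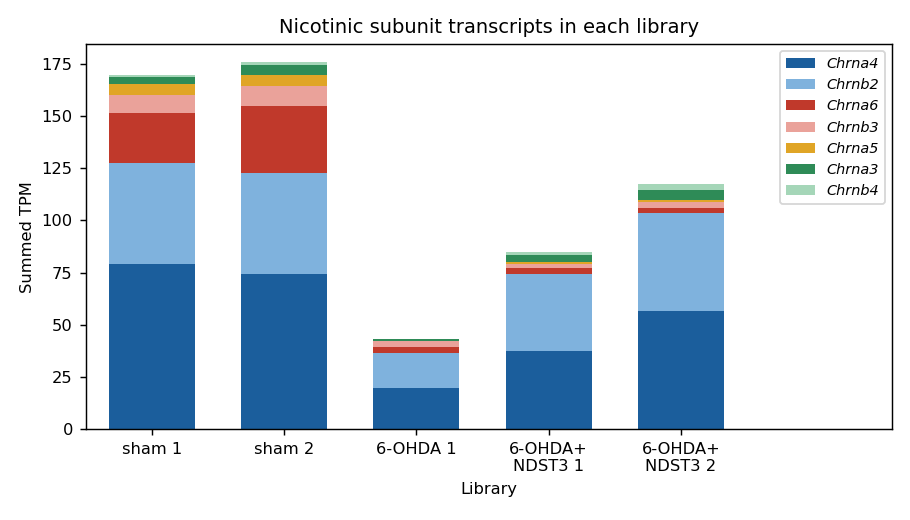
Summed TPM of 7 nicotinic subunit genes in each of the 5 libraries, with 1 coloured segment per gene. The red Chrna6 segment makes 14.2% and 18.2% of the bar in sham and 2.34% to 3.48% in the NDST3-treated libraries, while Chrna4 holds 42.4% to 48.1% throughout.

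Pan-neuronal markers were lower and then higher in the same comparisons. All 10 pan-neuronal markers were lower in the 6-OHDA library by adjusted p, from -0.96 (Syt1) to -2.22 (Nefl), with a median log2 fold change of -1.21. With NDST3 8 of the 10 were higher than in the 6-OHDA library, with a median of 0.99, and their summed level was 7363 and 8166 CPM in sham, 2861 CPM after 6-OHDA, and 6513 and 5790 CPM with NDST3. Rbfox3, the NeuN antigen, and Snap25, a protein of vesicle release, were at -1.54 and -1.74 after 6-OHDA and at 1.19 and 1.38 with NDST3. In bulk tissue, fewer neurons, less RNA per neuron, more RNA from other cells and a different mix of brain regions cannot be told apart.

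When libraries were scaled to the geometric mean of these pan-neuronal markers, a setting chosen after the data were seen, the median of all genes moved to 1.35 in the first comparison and to -1.05 in the second. Chrna4, Chrnb2, Chrna3, Chrnb3 and Chrnb4 then had values from -0.55 to 0.04 in the 6-OHDA library against sham, and none passed, nor did Chat (-0.71) and Slc18a3 (-1.20). Chrna5, Chrna6 and Ache were still lower, by 3.27 (adjusted p = 0.00169 by edgeR), 1.73 (adjusted p = 0.00175 by edgeR) and 0.61 (adjusted p = 0.0323 by edgeR) on the log2 scale. On this scale 1.23% of all genes were lower and 14410 of the 19300 passed in either direction. With NDST3, against the 6-OHDA library, none of the 5 genes called higher under TMM scaling passed. Of these, Chrna4 was at 0.05, Chrnb2 at 0.10 and Ache at 0.35, Chrna5 was at 1.03 (adjusted p = 0.0643 by edgeR) and Chrna3 at 0.97 (adjusted p = 0.0921 by edgeR), and Chrnb4, not called under either scaling, was at 1.74 (adjusted p = 0.0837 by edgeR). Chrna6 and Chrnb3 were lower on this scale, by 1.21 (adjusted p = 0.00584 by edgeR) and 1.36 (adjusted p = 0.0203 by edgeR). As 66.5% of all genes were lower on this scale, whose median is -1.05, these 2 values lie close to that of genes in general.

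**Figure D4:**
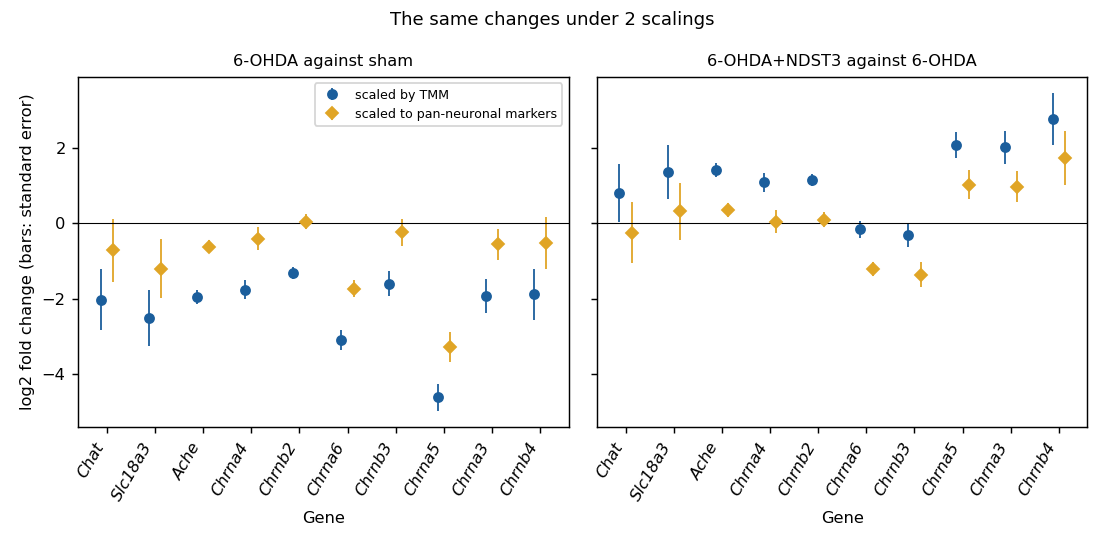
Log2 fold changes of the 10 genes under TMM scaling (blue circles) and after scaling to pan-neuronal markers (yellow diamonds), with bars of 1 standard error, for 6-OHDA against sham on the left and 6-OHDA+NDST3 against 6-OHDA on the right. On the right the diamonds of Chrna4 and Chrnb2 sit at 0.05 and 0.10 and those of Chrna6 and Chrnb3 at -1.21 and -1.36.

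Other genes of the pathway were read in the same fit. Of 8 chaperones and modulators of nicotinic receptors, 6 were lower after 6-OHDA (median log2 fold change -1.05) and 6 were higher with NDST3 (median 0.85). They were Ric3 and Tmem35a, which help receptors to assemble, and Lynx1, Lypd1, Lypd6b and Ly6h, relatives of snake neurotoxins that bind them. Lypd6b had the largest changes, at -2.58 (standard error 0.36, adjusted p = 0.00963 by edgeR) and 2.64 (standard error 0.36, adjusted p = 0.032 by edgeR). Rapsn, the anchor of muscle receptors, was at 1.89 and -1.01 and did not pass in either.

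Of 9 other nicotinic subunits the table lists 3. Chrna7, which forms receptors on its own, had 10.3 and 15.5 CPM in sham, 2.46 CPM after 6-OHDA, and 15.4 and 7.32 CPM with NDST3. It fell by 2.39 (standard error 0.58, adjusted p = 0.0321 by edgeR) and was at 2.21 with NDST3 (adjusted p = 0.0602 by edgeR). Chrna2 fell by 4.12 (standard error 1.04, adjusted p = 0.0363 by edgeR) and stood at 1.04 with NDST3 (adjusted p = 0.47 by edgeR). Chrnb1, a muscle subunit, was at 1.18 and -1.11 and did not pass.

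Among the 5 muscarinic receptors, through which acetylcholine acts by G proteins, Chrm2, Chrm3 and Chrm5 were lower after 6-OHDA and higher with NDST3. Chrm2 had 46.9 and 58.6 CPM in sham, 10.1 CPM after 6-OHDA, and 54.4 and 44.2 CPM with NDST3. It fell by 2.39 (standard error 0.23, adjusted p = 0.00823 by edgeR) and rose by 2.29 (standard error 0.23, adjusted p = 0.032 by edgeR). Chrm5, a receptor found on dopaminergic neurons, fell by 2.40 (adjusted p = 0.00916 by edgeR) and rose by 1.37 (adjusted p = 0.0479 by edgeR). Chrm1 moved the other way, at 0.98 and -1.25, without passing.

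Of 8 other genes of acetylcholine handling, 2 were lower and 2 higher after 6-OHDA. Slc10a4, a vesicle protein of cholinergic and monoaminergic neurons, fell by 4.26 (standard error 0.31, adjusted p = 0.00823 by edgeR) and rose by 1.75 with NDST3 (adjusted p = 0.0341 by edgeR). Bche, the other enzyme that splits acetylcholine and largely a glial gene in brain, rose by 1.21 (standard error 0.22, adjusted p = 0.0154 by edgeR) and fell by 1.30 with NDST3 (standard error 0.22, adjusted p = 0.035 by edgeR), opposite to Ache in both comparisons. Slc44a1, a choline transporter of many cell types, rose by 0.82 after 6-OHDA (adjusted p = 0.00869 by edgeR) and was at -0.42 with NDST3 (adjusted p = 0.0555 by edgeR).

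The table lists 5 of 10 regulators and markers of cholinergic neurons. Their summed level was 29.4 and 21.8 CPM in sham, 17.2 CPM after 6-OHDA, and 16.5 and 16.5 CPM with NDST3. After 6-OHDA 2 of the 5 were lower, among them Calca (-1.19, adjusted p = 0.0461 by edgeR), and none of the 5 passed with NDST3. Isl1, a regulator of cholinergic neurons in forebrain and motor nuclei, was at 0.68 and 0.62 CPM in sham, 3.27 CPM after 6-OHDA, and 0.47 and 1.99 CPM with NDST3, and did not pass. Lhx8, which marks forebrain cholinergic neurons, is not among the genes listed.

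**Figure D5:**
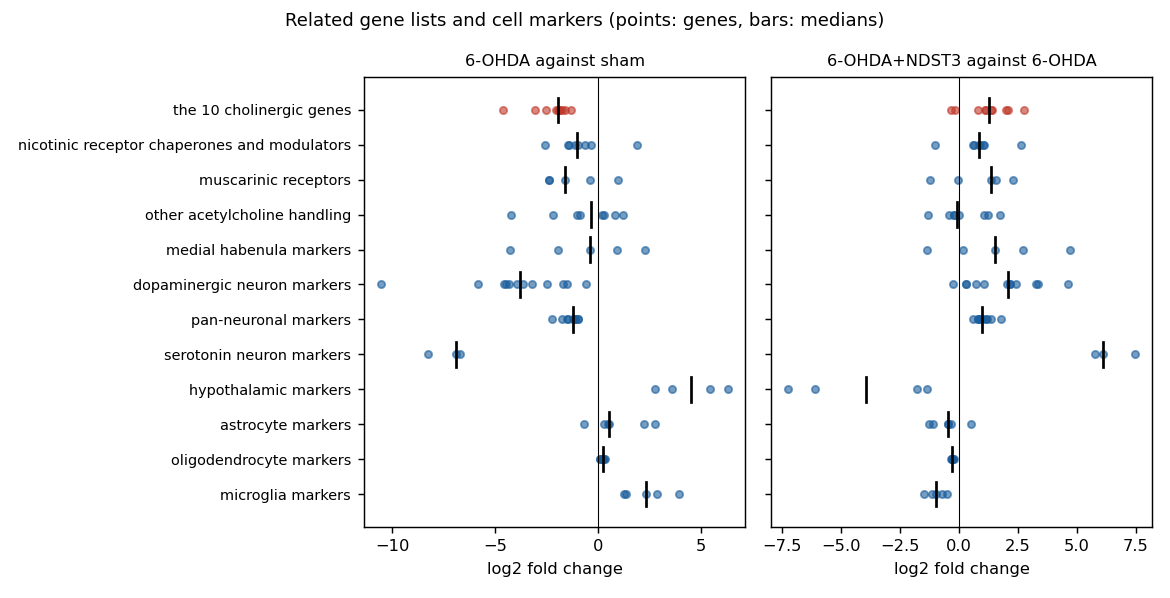
Log2 fold change of each gene (points) of the 10 cholinergic genes in red and of related lists and cell markers in blue, with a black bar at each median, for 6-OHDA against sham on the left and 6-OHDA+NDST3 against 6-OHDA on the right, each on its own axis range. The cholinergic genes have medians of -1.94 and 1.26, pan-neuronal markers -1.21 and 0.99, and serotonin neuron and hypothalamic markers lie far from 0 in opposite directions.

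Markers of other cells moved in the same comparisons. All 12 dopaminergic markers were lower after 6-OHDA, with a median of -3.80, and 5 were higher with NDST3, with a median of 2.1. All 3 serotonin neuron markers were lower and then higher, with medians of -6.92 and 6.10, led by Slc6a4 (-8.28 and 7.46), with Tph2 at -6.92 and 6.10. Of 4 hypothalamic markers 3 were higher in the 6-OHDA library and 2 lower with NDST3, led by Hcrt at 6.32 and -7.24. Of 5 habenular markers 2 were lower and 1 higher after 6-OHDA, and 2 were higher with NDST3. Among glia, all 5 listed microglia markers were higher after 6-OHDA (median 2.33, with Aif1 not listed), as were 3 of 6 astrocyte markers, led by Gfap at 2.78, and none of either list passed with NDST3. None of 6 oligodendrocyte, 6 striatal neuron and 2 listed T and B cell markers passed in either comparison. The part of these cell and region markers in the values of the cholinergic genes was not tested.

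In scRNA-seq the cholinergic genes were near 0 in every cluster. The table gives a mean for 9 clusters of cells on a natural log scale. It comes from 1 library of lesioned mice without NDST3 and 1 with it, so there is no replicate and no test. To limit multiplets, which are droplets with more than 1 cell, the study left out cells above a cap on detected genes. Its methods name no tool for calling doublets. The highest mean of any of the 9 listed genes was 0.0199, for Chrna4 in cluster 2 of the NDST3-treated PD model, where the 6-OHDA-induced PD model had 0.0119. Ache had 0.0171 in the same cluster with NDST3 and 0.000727 without it. Chrna6 reached at most 0.000347 and Chat was above 0 in 1 of 18 cluster means, at 0.000831. None of the 9 genes exceeded 0.1 in any cluster, whereas 12263 of 26646 genes did in at least 1, and the median over all genes of the highest cluster mean was 0.0728.

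Markers of neurons were uneven in that table, with 3 of 10 pan-neuronal and 5 of 12 dopaminergic markers above 0.1 in some cluster. Map2 reached 0.554 in cluster 2 and Nr4a2, which immune cells can also express, 2.22 in cluster 4. The highest cluster means were 0.00283 for Th, 0.0073 for Slc6a3 and 0.0224 for Rbfox3, while the microglial gene C1qa reached 4.01 and the B cell gene Cd79a 3.23. Differences between the groups in the cholinergic genes were at most 0.0164 in size (Ache, cluster 2), and no change was read from them.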

How the data were processed

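Mouse brain tissue was profiled by RNA-seq, H3K27ac CUT&RUN, ATAC-seq and scRNA-seq. For RNA-seq, reads were trimmed with Trimmomatic, aligned to mm10 with HISAT2 and quantified with StringTie, and the authors deposited read counts, FPKM and TPM for each library. The strand setting of the counting is not given in the sources used here. No gene listed has a count of 0 in any library, so genes undetected in 1 library are missing from the table. The deposited CUT&RUN and ATAC-seq tables hold a normalized tag signal per region, pooled over the libraries of a group for CUT&RUN, and how it was normalized is not given in the sources used here. The deposited scRNA-seq table holds cluster means on what fits a natural log scale for the lesioned groups, and the sham library was not analysed here.

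Samples were grouped by their treatment labels. Counts were scaled by TMM (factors from 0.979 to 1.016), filtered with edgeR's filterByExpr (19300 of 20328 genes kept) and tested in 1 fit over the 3 groups with edgeR's quasi-likelihood test (edgeR 4.0.16, R 4.3.3), with Benjamini-Hochberg adjustment over all genes tested and a threshold of 0.05. The standard errors, also drawn as bars, were calculated back from the fold change and the F statistic of this quasi-likelihood test. The intervals were built from these standard errors, so neither is an estimate of spread made apart from the test. The biological coefficient of variation was 20.3%, and total counts of 51003699 to 70533326 leave counting error small beside it except at low counts. The lowest counts were 13 for Chrna5 and 24 for Chrnb4 in the 6-OHDA library. Other low counts were those of Chrna5 with NDST3 (64 and 63) and of Chrnb4 in sham replicate 1 (81). Slc18a3, Chrna3 and Chat had 92, 98 and 104 counts in the 6-OHDA library. The steps were tested on simulated data. Alternatives were DESeq2 1.42.0, limma 3.58.1 on FPKM in log2 with a pseudocount of 1 or 0.1, other scaling factors, no filter, only the groups compared, a fold rule, a replicate block and leaving out each library. The crossed replicate block and the scaling to pan-neuronal markers were chosen after seeing the data. Python 3.11.15 served for the other tables.

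The 10 genes and all lists were chosen with earlier results of these data known. From each list the text names the genes with the largest and smallest change and those that define it, and for each of the 10 genes the 3 genes of nearest profile. Further list genes were named after their values were seen, and a few genes that the rule names are not reported here. GRCm38 coordinates and promoter windows are from RefSeq.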

Additional observations from a re-analysis of the deposited data

How the results depend on the processing

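Of 420 planned recalculations of the log2 fold changes of the 10 genes, 346 kept their direction and their side of the threshold, 53 lost the call, 19 gained one and 2 turned direction. Both that turned were Chrna3 in the NDST3-treated PD model against sham (0.09), at -0.26 without sham replicate 1 and -0.11 without NDST3-treated replicate 2, within a range of -0.26 to 0.55 over the libraries left out. Leaving out 1 library gave 0 to 8 called genes for 6-OHDA against sham (7 with all libraries), 0 to 4 for NDST3 against 6-OHDA (5) and 0 to 1 for NDST3 against sham (0), where the 1 gene was Chrna6 without NDST3-treated replicate 1. For NDST3 against 6-OHDA, a fit of only these groups gave 0 called genes (7 at a raw p under 0.05), and 0 among all genes tested. In the same comparison limma gave 2 with either pseudocount. Among all genes it called 1966 with a pseudocount of 1 and 1874 with 0.1, against 3019 in the main fit. DESeq2 called 10, 6 and 5 genes for 6-OHDA against sham, NDST3 against 6-OHDA and NDST3 against sham (7503, 5232 and 1048 of all genes), and the fold rule 9, 6 and 3 (4731, 3024 and 1131). Scaling to pan-neuronal markers left 3 of the 7 calls for 6-OHDA against sham and 0 of the 5 for NDST3 against 6-OHDA, where it called 2 other genes (Chrna6 and Chrnb3), both lower, among 13048 of all genes. It turned Chrnb2 against sham after 6-OHDA to 0.041 and with NDST3 to 0.14, and Chat with NDST3 against 6-OHDA to -0.24. By construction, leaving out libraries leaves fewer samples, and this scaling moves all genes. For the other settings the cause was not tested.

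The replicate numbers are only labels, and the deviations of same-numbered sham and NDST3-treated libraries had a correlation of -0.432 over 19300 genes. With the replicate block, 5 genes were called for 6-OHDA against sham (1796 of all genes, against 6916 without it), 0 for NDST3 against 6-OHDA and 0 for NDST3 against sham. With the pairing crossed, the block gave 10, 6 and 4 called genes, among 7444, 4795 and 1194 of all genes. With 1 library of the 6-OHDA-induced PD model and at most 13 counts of Chrna5 and 24 of Chrnb4 in it, its own spread could not be measured.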
